A study of Homo sapiens with 4 samples.

Results

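Ribosome collision sensors were followed as a group of 10 genes, taken as the rows of the TPM tables whose symbol was *ZNF598*, *ASCC2*, *ASCC3*, *TRIP4*, *EDF1*, *GIGYF2*, *EIF4E2*, *GCN1L1*, *ZAK* or *GNB2L1*. All 10 were found among 20457 listed features, 3 of them under older symbols (*GCN1L1* is now *GCN1*, *ZAK* is *MAP3K20* and *GNB2L1* is *RACK1*). RNA came from HEK293, a laboratory line of embryonic kidney origin, and was sequenced as poly(A) libraries. In 2 libraries the cells carried siRNA against *CNOT4* (siCNOT4, labelled as *CNOT4* knockdown) and in 2 a negative control siRNA (siControl, labelled WT), in both cases at 10 nM for 72 h. The study asked what CNOT4, a ubiquitin ligase attached to the CCR4-NOT deadenylase complex, contributes to the effect of codon usage on expression. Values are TPM, the authors' length-normalised abundance, which sums to 1000000 in each library.

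When a ribosome stalls on an mRNA, the ribosome behind it runs into it, and the joined small subunits form a surface that several proteins recognise. ZNF598 is the ubiquitin ligase that marks small subunit proteins of the collided pair, RACK1 is the ribosomal protein at that interface, and the ASC-1 complex (ASCC3, ASCC2 and TRIP4) then pulls the leading ribosome apart. EDF1 binds collided ribosomes and brings in GIGYF2 and the cap-binding protein 4EHP (gene *EIF4E2*), which block further initiation on the same mRNA. GCN1 connects collided ribosomes to the kinase GCN2 and so to the integrated stress response, and ZAK connects them to the p38 and JNK kinases. In yeast the CNOT4 homolog Not4 ubiquitinates a small subunit protein and acts in the same field of ribosome surveillance.

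The sensors have unlike transcript starts, which are shown because the lower group below contains both a gene with the start of a ribosomal protein gene and genes without it. Each window runs from 10 bases before the RefSeq start (GRCh38.p14) through the first 20 bases of the transcript, 5′ to 3′, and capitals mark the unbroken run of C or T that holds the first base of the transcript or ends just before it. Transcripts of ribosomal protein genes typically begin with such a tract.
GNB2L1 (chr5:181243887-181243916, minus strand): gCTTTTCTCTCTCTCTTTCactgcaaggcg
EDF1 (chr9:136866289-136866318, minus strand): cgcgccaggTCTCTagcagctgccgctgag
ZNF598 (chr16:2009802-2009831, minus strand): acgtttgCCCggaaggggcgggcccgccgg
TRIP4 (chr15:64387826-64387855, plus strand): tggggCTTTTgcagctcagctggttccggc
RPS3 (chr11:75399508-75399537, plus strand): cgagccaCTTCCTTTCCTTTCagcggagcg
RPS10 (chr6:34426050-34426079, minus strand): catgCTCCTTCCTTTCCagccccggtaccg
The run was 18 bases in *GNB2L1*, 9 of them in the transcript, against 14 in *RPS3* and 13 in *RPS10* (11 and 7 in the transcript), small subunit genes shown for comparison. In *EDF1* 4 of its 5 bases were in the transcript. In *TRIP4* (5 bases) and *ZNF598* (3 bases) the run lay wholly before the start, and 0 bases were in the transcript. Of the 9 sensors with a RefSeq window, *GNB2L1* and *ZAK* (8 bases, only 3 of them in the transcript) had such a run of at least 8 bases, which 6.88% of 35116 promoters had.

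*CNOT4* itself was at 6.43 and 4.73 TPM in siControl against 3.38 and 3.80 in siCNOT4, with no overlap of the groups. On the log2(TPM + 1) scale of all fold changes given here it differed by -0.51 (SE 0.26, limma adjusted p 0.184), so the drop of the targeted transcript did not pass the test. Every value below has to be read against a general shift: among 14208 tested features (mean TPM of at least 1) the median log2 fold change was 0.50, and *CNOT4* lay at -1.01 from it. Depth estimated from the steps between low values was 36.7 to 38.3 in units of 1e6 reads. Of 9 HEK293 markers 8 had a mean TPM of at least 1, with *NEFL*, *KRT8* and *VIM* highest and *NEFM* below, and *VIM* fell (limma adjusted p 0.0288). Of 11 listed markers of other cell types only *COL1A1* had, and it rose from 1.39 and 0.906 to 5.09 and 6.60 TPM (log2 fold change 1.67, limma adjusted p 0.0248; its part in the results below was not tested), while *HBB* was listed at 0 in all 4 libraries.

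Most sensor transcripts were higher in the siCNOT4 libraries, and 3 were lower. *TRIP4* and *EIF4E2* rose and *GNB2L1* fell, each at a limma adjusted p under 0.05, so 3 of 10 sensors were called, where 12.6% of all tested features were (11.3% higher, 1.3% lower). The siCNOT4 libraries lay entirely above the siControl libraries for 6 sensors, where 66.4% of all features did, and entirely below for 3, where 10.6% did (77.1% of all features in either direction). Only *GIGYF2* overlapped between the groups. At an unadjusted p under 0.05, 9 of 10 differed, against 42% of all features. The median log2 fold change of the 10 sensors was 0.72, beside 0.50 for all features. All 10 passed the filter on mean TPM, and the lowest value of any of them in any library was 11.0 TPM. In bulk RNA, fewer cells with a transcript and less of it per cell cannot be told apart, and the labels do not say that replicates were separate cultures, so p values cover only the spread between these libraries.

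**Figure D1:**
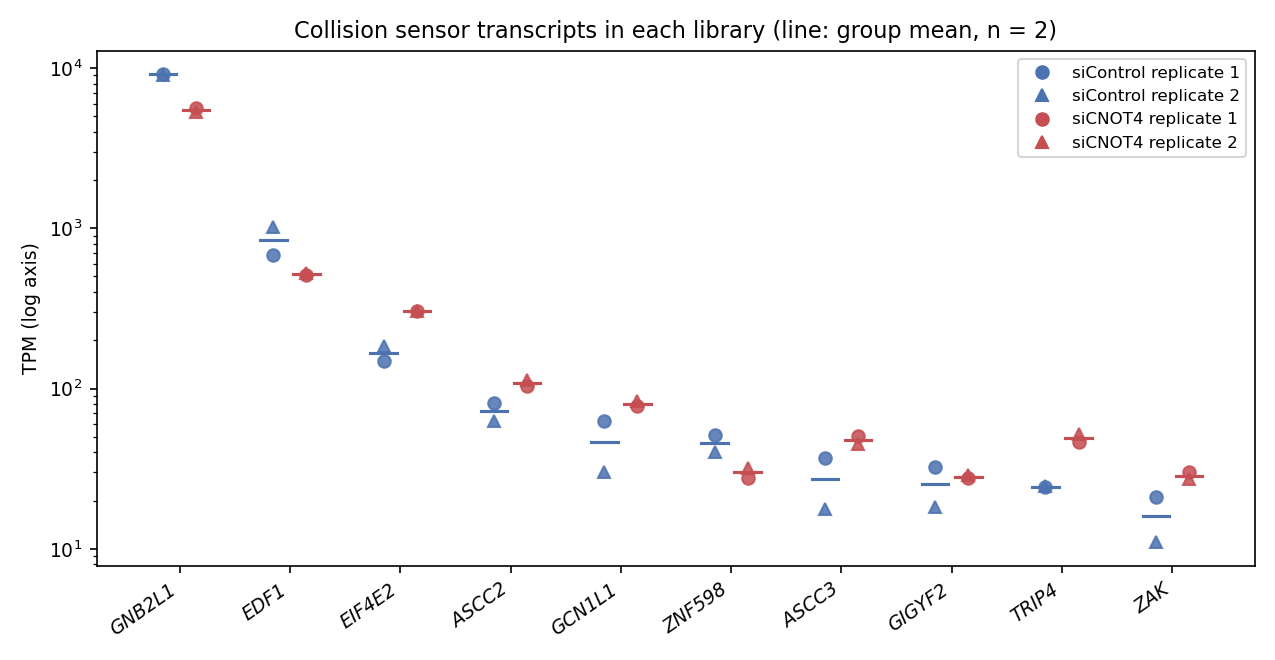
TPM of the 10 sensors on a log axis in each of the 4 libraries, blue for siControl and red for siCNOT4, circle for replicate 1 and triangle for replicate 2, with lines at the group means. *GNB2L1*, *EDF1* and *ZNF598* are lower in both siCNOT4 libraries, *GIGYF2* overlaps, and the other 6 are higher.

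The transcripts of the ligase ZNF598 and of RACK1 were both lower in the siCNOT4 libraries, and with TPM as deposited only that of RACK1 passed the test. *GNB2L1* (chromosome 5, 181236909 to 181248096, minus strand, 9 exon blocks; this and the next coordinates are GENCODE 29 on GRCh38) encodes RACK1, the WD-repeat protein of the small subunit. It had 9151 and 9082 TPM in the siControl libraries, compared with 5661 and 5293 under siCNOT4. The replicates of a group lay close together and the groups far apart, at 9116 ± 48.6 and 5477 ± 260.3 (mean ± SD, n = 2 each, as for all such values here). The ratio of the means was 0.601 and the log2 fold change was -0.74 (SE 0.11, limma adjusted p 0.0254). It ranked 3rd and 8th among all listed features in siControl against 6th and 7th in siCNOT4.

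*ZNF598* (chromosome 16, 1997654 to 2009823, minus strand) is the RING-type ligase that starts the response. Its transcript was at 51.4 and 40.2 TPM in siControl against 27.8 and 32.1 in siCNOT4. Both siCNOT4 values were below both controls, 45.8 ± 7.89 against 29.9 ± 2.99, but the log2 fold change of -0.59 (SE 0.23) had a limma adjusted p of 0.104. Its place within each library moved more plainly than its level. *ZNF598* stood at the 76.8 and 76.7 percentile of tested features in the siControl libraries, and at the 56.6 and 60.2 percentile in the siCNOT4 libraries. Relative to the median of all features it was at -1.09. It was called lower after rescaling by a trimmed mean of M values (log2 fold change -1.13, limma adjusted p 0.0303), after quantile normalization (-1.04, 0.0248) and after removal of each library's trend with transcript length (-1.07, 0.00809).

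The proteins that ZNF598 and RNF10 ubiquitinate on the small subunit are encoded by *RPS10*, *RPS20*, *RPS3* and *RPS2*. *RPS2* fell, from 3388 and 4538 TPM to 2197 and 2065 (log2 fold change -0.88, limma adjusted p 0.0335). *RPS3* (-0.56) and *RPS10* (-0.47) did not pass the test, with limma adjusted p values of 0.0584 and 0.0708, although their siCNOT4 libraries were below both controls. *RPS20* overlapped between the groups, at 1324 and 1512 TPM in siControl against 1376 and 1350 in siCNOT4. A ratio of 2 transcripts within 1 library does not depend on a constant scaling of that library, but removal of a length trend can change it. *GNB2L1* was 4.44 and 3.53 times the geometric mean of these 4 genes in siControl against 3.38 and 3.30 times in siCNOT4. The siCNOT4 ratios were lower in both libraries, but the second control lay close to them, and p was 0.333 in a two-sided exact permutation test, which cannot give less with 2 libraries in each group. The ratio of *ZNF598* to *GNB2L1* was 0.00562 and 0.00443 in siControl against 0.00492 and 0.00606 in siCNOT4, and the groups overlapped.

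The transcripts of the 3 sensor subunits of the ASC-1 complex, which disassembles the stalled ribosome, were higher with TPM as deposited, and 1 of them passed the test. Relative to the median of all features *TRIP4* was at 0.48, *ASCC3* at 0.38 and *ASCC2* at 0.09. *TRIP4* (chromosome 15, 64387748 to 64455303, plus strand) encodes the zinc-finger subunit after which the complex is named. It had 24.2 and 24.5 TPM in the siControl libraries, compared with 46.2 and 51.7 in the siCNOT4 libraries. The controls were nearly equal and the siCNOT4 mean of 48.9 ± 3.94 was 2.01 times their mean of 24.3 ± 0.271. Its log2 fold change, 0.98 (SE 0.21, limma adjusted p 0.0414), was the highest of the 10 sensors.

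*ASCC3* (chromosome 6, 100508194 to 100881372, minus strand) encodes the helicase that supplies the force. Its TPM was 36.8 and 17.7 in siControl against 50.7 and 45.3 in siCNOT4, so the controls differed from each other by more than the higher control did from the siCNOT4 libraries. The log2 fold change of 0.88 (SE 0.35) had a limma adjusted p of 0.113. *ASCC2* (chromosome 22, 29788608 to 29838304, minus strand), the subunit that binds ubiquitin chains, was at 80.9 and 63.0 TPM in siControl against 103 and 113 in siCNOT4 (log2 fold change 0.59, SE 0.19, limma adjusted p 0.0762). *ASCC1*, the remaining subunit of the complex, had 25.4 ± 5.30 TPM in siControl against 28.4 ± 0.432 in siCNOT4 and overlapped between the groups (0.17, limma adjusted p 0.597).

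The balance between the subunits overlapped between the groups with TPM as deposited, but it depended on the treatment of length. After removal of the length trend the log2 fold changes of *TRIP4*, *ASCC3* and *ASCC2* were 0.69, 0.03 and 0.18, beside 0.98, 0.88 and 0.59. With TPM as deposited, the ratio of *ASCC2* to *ASCC3* was 2.20 and 3.55 in the siControl libraries, compared with 2.04 and 2.498 in the siCNOT4 libraries. The ratio of *TRIP4* to *ASCC3* was 0.656 and 1.38 in siControl against 0.911 and 1.14 in siCNOT4, so the controls bracketed the siCNOT4 libraries. The exact two-sided permutation p values were 0.667 and 1.0.

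The genes that silence initiation on a stalled mRNA differed from each other with TPM as deposited. That of the cap-binding protein rose, that of its scaffold overlapped between the groups and that of the recruiter was lower without passing the test. *EIF4E2* (chromosome 2, 232550052 to 232583644, plus strand) encodes 4EHP, a relative of eIF4E that occupies the cap without starting translation. It had 149 and 183 TPM in siControl against 304 in both siCNOT4 libraries, 1.83 times the control mean of 166 ± 24.4. The log2 fold change was 0.88 (SE 0.16, limma adjusted p 0.0319), which is 0.38 relative to the median of all features. After removal of the length trend the log2 fold change was 0.25 and did not pass the test (limma adjusted p 0.523). In GENCODE 29 the gene *TIGD1* on the opposite strand shares 541 bases with *EIF4E2* exons, and an antisense gene that matched no listed feature shares 1194 and a miRNA gene 100. Opposite-strand genes also share exonic bases with *ZNF598* (504), *ZAK* (194) and *GIGYF2* (112 and 33). Whether the counting used strand is not given in the sources used here, so reads could be divided between such genes. *TIGD1* moved the other way, from 28.5 and 27.4 TPM to 12.02 and 12.16 (limma adjusted p 0.0411).

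*GIGYF2* (chromosome 2, 232697299 to 232860575, plus strand) encodes the scaffold that carries 4EHP. It lies 113654 bases beyond the end of *EIF4E2* on the same strand. Its TPM was 32.2 and 18.2 in siControl against 27.7 and 28.7 in siCNOT4, so both siCNOT4 libraries fell between the controls. Its log2 fold change, 0.21 (SE 0.31, limma adjusted p 0.612), turned to -0.18 without siControl replicate 2 and to -0.55 after removal of the length trend (limma adjusted p 0.0231). The ratio of *EIF4E2* TPM to *GIGYF2* TPM was 4.62 and 10.1 in the siControl libraries, compared with 11.0 and 10.6 in the siCNOT4 libraries. The siCNOT4 ratios exceeded both controls, but siControl replicate 2 was near them (exact two-sided permutation p = 0.333). The paralog *GIGYF1* had 10.9 ± 0.412 TPM in siControl against 14.6 ± 2.55 in siCNOT4 (0.38, limma adjusted p 0.311), and *EIF4E* 11.7 ± 2.48 and 13.8 ± 0.0203 (0.24, limma adjusted p 0.526).

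*EDF1* (chromosome 9, 136862119 to 136866286, minus strand) encodes the small protein that sits at the collision interface. It had 679.8 and 1014 TPM in siControl against 512 and 525 in siCNOT4. Both siCNOT4 libraries were below both controls, but the controls differed, at 847 ± 236, and the log2 fold change of -0.68 (SE 0.20) had a limma adjusted p of 0.0667. It passed after removal of the length trend (-0.82, limma adjusted p 0.0285). *EDF1* kept an overlapping ratio to *GNB2L1*, 0.0743 and 0.112 in siControl against 0.0904 and 0.0991 in siCNOT4, so the difference of *EDF1* between the groups was of about the size of that of *GNB2L1*.

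**Figure D2:**
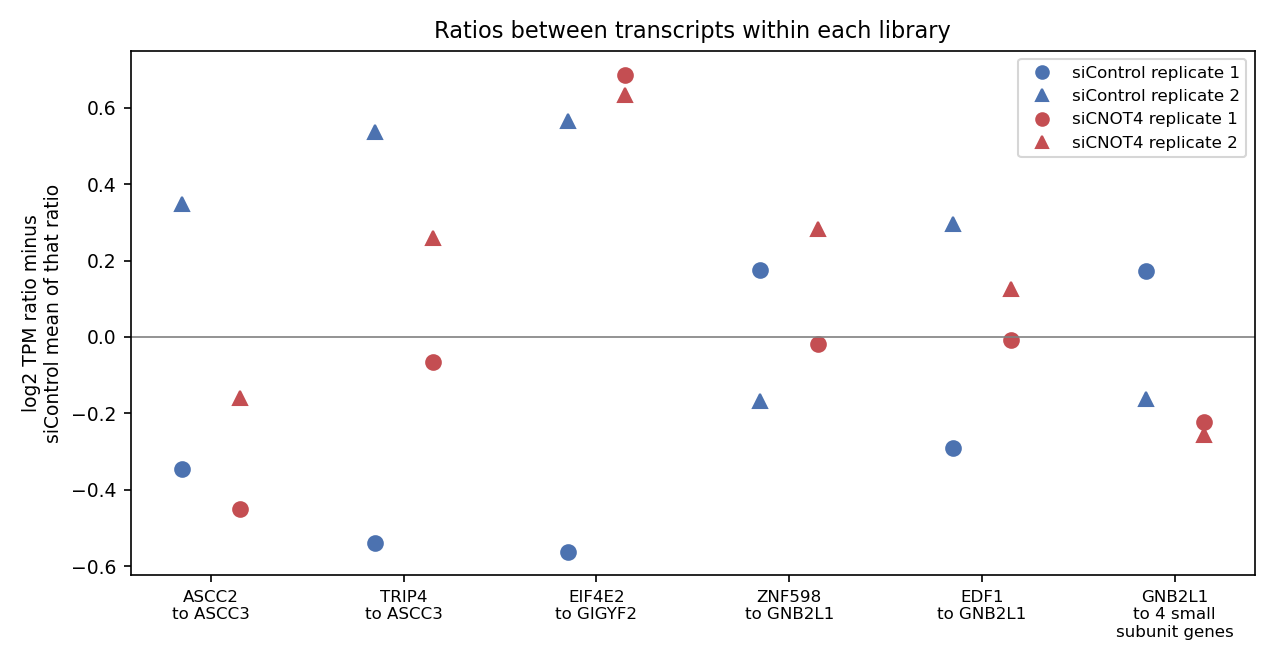
Log2 ratio of TPM between transcripts within each library, minus the siControl mean of that ratio, for 6 ratios. The siCNOT4 points lie above both controls for *EIF4E2* to *GIGYF2*, and below both for *GNB2L1* to the 4 small subunit genes, and the groups overlap in the other 4.

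The signalling sensors were higher in both siCNOT4 libraries without passing the test. Relative to the median of all features *GCN1L1* was at 0.38 and *ZAK* at 0.36. *GCN1L1* (chromosome 12, 120127203 to 120194710, minus strand) encodes GCN1, the large scaffold that activates GCN2. Its TPM was 62.3 and 30.1 in siControl against 77.8 and 83.4 in siCNOT4 (log2 fold change 0.88, SE 0.34, limma adjusted p 0.106). *EIF2AK4*, which encodes GCN2 itself, was at 31.5 ± 12.6 and 48.9 ± 2.28 TPM (0.67, limma adjusted p 0.139). *ZAK* (chromosome 2, 173075435 to 173268010, plus strand) encodes the kinase of the ribotoxic stress response. It was the lowest of the sensors in siControl, at 21.1 and 11.0 TPM, and had 29.9 and 27.1 in siCNOT4 (0.86, SE 0.34, limma adjusted p 0.113). For *GCN1L1* and *ZAK*, as for *ASCC3*, siControl replicate 2 was near 1/2 of siControl replicate 1. Without siControl replicate 2 the log2 fold changes of *GCN1L1*, *ASCC3* and *ZAK* were 0.36, 0.37 and 0.42, and without siControl replicate 1 they were 1.39, 1.38 and 1.30.

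This difference between the controls followed transcript length. The siControl replicates differed by more than 0.5 on the log2 scale in 5 of 10 sensors. Replicate 1 was higher by 1.03 in *GCN1L1*, 1.01 in *ASCC3*, 0.88 in *ZAK* and 0.79 in *GIGYF2*, whose summed exon lengths are 8675, 11378, 10193 and 8018 bases. It was lower by 0.58 (-0.58) in *EDF1*, with 1200 bases. The order by length was not strict. *EIF4E2* (5230 bases) was at -0.30, below the shorter *ZNF598* (3371) and *ASCC2* (2885), both at 0.35. Across the 10 sensors the Spearman rho of exon length with that difference was 0.827, and it was 0.597 across 13736 tested features with a length, which share the same 2 libraries. The siCNOT4 replicates differed by -0.20 to 0.16 in the sensors. After removal of each library's trend with length, *GCN1L1*, *ASCC3* and *ZAK* were at 0.10, 0.03 and 0.04, with limma adjusted p values of 0.596, 0.858 and 0.831.

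Scaling set which sensors passed the test. With TPM as deposited *TRIP4*, *EIF4E2* and *GNB2L1* did. After the trimmed mean of M values only *ZNF598* did, where 8.67% of all features were called, and *TRIP4* was at 0.43, *EIF4E2* at 0.32 and *GNB2L1* at -1.29, with limma adjusted p values of 0.187, 0.446 and 0.142. After quantile normalization *EIF4E2* rose and *ZNF598* fell (15.3% of all features called), and *GNB2L1*, whose rank hardly moved, was at -0.12. After removal of the length trend *TRIP4* rose and *ZNF598*, *GIGYF2*, *GNB2L1* and *EDF1* fell (26.1% of all features called). In these 3 rescalings *ZNF598*, *EDF1* and *GNB2L1* were below 0, as with TPM as deposited. *TRIP4*, *EIF4E2*, *ASCC2*, *ASCC3*, *GCN1L1* and *ZAK* stayed above 0, while *GIGYF2* turned from 0.21 to below 0. Some of these values were small: *ASCC2* was at 0.04 after the trimmed mean of M values. After removal of the length trend *ASCC3* was at 0.03 and *ZAK* at 0.04. *ZNF598* was called in all 3. Removal of a trend on length and GC content together called the same 5 sensors as removal of the length trend (23.9% of all features called). A fit without the variance trend called 0 sensors (5.32% of all features), 7 having an unadjusted limma p under 0.05, as did 40.3% of all features.

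Single libraries weighed on these counts too. Without siControl replicate 1, 10 sensors were called, where 79.6% of all features were, and without siControl replicate 2, 9 were, where 57.5% were. Without siCNOT4 replicate 1 or 2 limma called 0 sensors, where 3.35% and 3.17% of all features were called, and 3 sensors had an unadjusted p under 0.05 in each fit, as did 14.7% of all features. The spread in the latter fits comes from the siControl libraries alone.

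**Figure D3:**
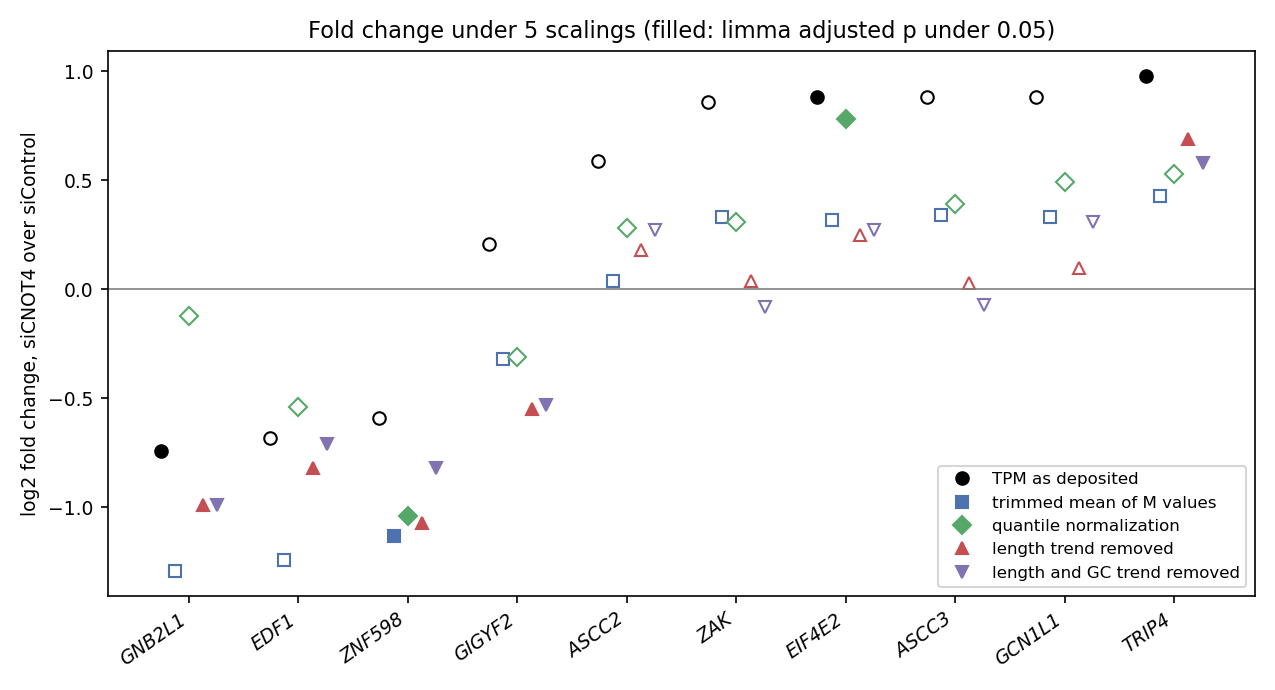
Log2 fold change of each sensor, siCNOT4 over siControl, for TPM as deposited and 4 rescalings, filled where the limma adjusted p was under 0.05. *ZNF598* lies between -1.13 and -0.59 and *TRIP4* between 0.43 and 0.98, while *GIGYF2* is below 0 in all 4 rescalings and *ASCC3* and *ZAK* are below 0 after removal of a trend on length and GC content.

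**Figure D4:**
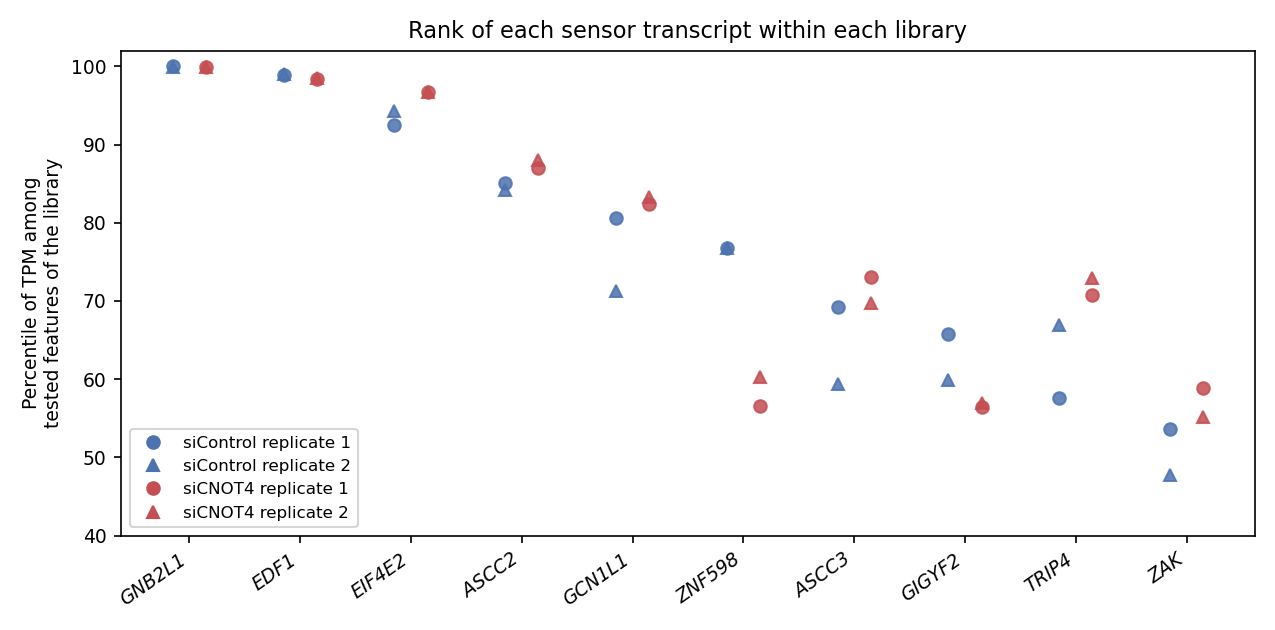
Percentile of each sensor's TPM among the tested features of the same library, a measure that a constant scaling of a library leaves as it is. *ZNF598* drops from 76.8 and 76.7 in siControl to 56.6 and 60.2 in siCNOT4, and *TRIP4* stands at 57.6 and 66.9 against 70.7 and 73.0.

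The levels of the sensors covered a wide range and kept much of their order. In siControl *GNB2L1* was highest, followed by *EDF1*, *EIF4E2* and *ASCC2*, each clear of the next. *GCN1L1* (46.2 TPM) and *ZNF598* (45.8) overlapped, as did *ASCC3* (27.3), *GIGYF2* (25.2) and *TRIP4* (24.3), and *ZAK* was last. In siCNOT4 the first 5 places were the same. *TRIP4* (48.9) and *ASCC3* (48.0) followed with overlapping ranges, then *ZNF598* (29.9), *ZAK* (28.5) and *GIGYF2* (28.2), each overlapping the next. *ZNF598* thus stood above *ASCC3*, *GIGYF2* and *TRIP4* in siControl and below *ASCC3* and *TRIP4* in siCNOT4.

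The rest of the pathway was described by 5 lists of 47 genes, of which 46 were tested, 2 rose and 1 fell, where 11.3% of all features were called higher and 1.3% lower. The 12 partners of the sensors, *CNOT4* among them, had a median log2 fold change of 0.28, below the 0.50 of all features. In limma 0 of them passed the test and 2 had an unadjusted p under 0.05 (12.6% and 42% of all features). *USP9X*, a deubiquitinase known to protect ZNF598, had the highest value (0.99, 80.1 ± 44.2 against 147 ± 4.08 TPM, limma adjusted p 0.0976). Among 9 ubiquitin ligases and deubiquitinases at stalled ribosomes 1 rose, *USP16*, from 88.3 ± 18.3 to 159 ± 0.605 TPM (0.86, limma adjusted p 0.0439). *OTUD1* was at 12.6 ± 1.99 and 25.9 ± 0.459 TPM (0.99, limma adjusted p 0.0527), and the list's median was 0.49.

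Of 11 rescue and nascent chain factors 0 passed in limma and 7 had an unadjusted p under 0.05 (12.6% and 42% of all features), with a median of 0.65. *N4BP2*, a relative of the yeast endonuclease Cue2, had the highest value (1.48, limma adjusted p 0.0786), at 9.08 and 2.76 TPM in siControl against 17.7 and 14.9 in siCNOT4. Of 10 tested kinases downstream of ZAK 1 rose, *MAP2K6*, an activator of p38, from 12.8 ± 1.31 to 27.3 ± 1.68 TPM (1.04, limma adjusted p 0.0475). *MAPK8*, which encodes JNK1, had the highest value (1.30, limma adjusted p 0.0606), and *MAPK12*, a p38 kinase, the lowest (-0.73, limma adjusted p 0.0581). This list's median was 0.60.

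**Figure D5:**
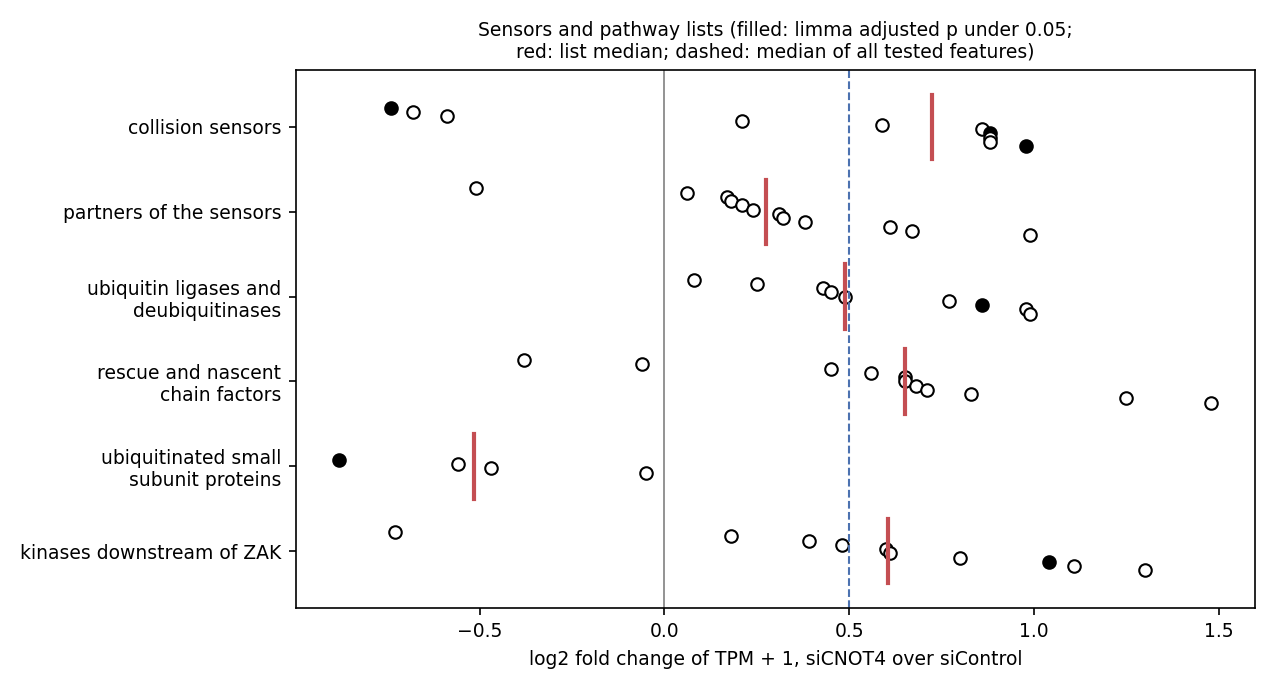
Log2 fold change of each sensor and of each tested gene in the 5 pathway lists, filled where the limma adjusted p was under 0.05, with list medians in red and the median of all tested features (0.50) dashed. The sensors spread from -0.74 to 0.98, and the 4 ubiquitinated small subunit genes lie from -0.88 to -0.05.

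The genes nearest in pattern to the lowest and the highest sensor were taken from 11394 others with a mean TPM of at least 5, by the distance between log2(TPM + 1) profiles over the 4 libraries after centring each on its mean. Nearest to *GNB2L1* were *RPL41*, a large subunit protein gene (389.5 and 392.5 TPM in siControl, 244 and 229 in siCNOT4, distance 0.019), *ODC1*, the first enzyme of polyamine synthesis (0.050), and *IMPDH2*, an enzyme of guanine nucleotide synthesis (0.057). Their log2 fold changes were -0.72, -0.75 and -0.78, beside -0.74 for *GNB2L1*. Nearest to *TRIP4* were *EML2* (17.6 and 17.7 TPM in siControl, 34.3 and 38.3 in siCNOT4, distance 0.022), *C15orf40* (0.023) and *NEU1*, a lysosomal sialidase (0.028). With 4 libraries, a short distance describes these libraries only.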

How the data were processed

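Poly(A) libraries were made with a stranded kit, per the labels' protocols. TPM values were deposited by the authors, 1 table per library and not pooled. FastQC 0.11.2, STAR 2.5.3a, featureCounts and the build hg19 are named in the submitters' processing notes. The annotation and the use of strand are not given in the sources used here. Groups came from sample titles.

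log2(TPM + 1) was fitted, for the 14208 features averaging at least 1 TPM, with limma 3.58.1 (R 4.3.3; lmFit, eBayes with a trend), 2 libraries against 2, no covariates, with Benjamini-Hochberg adjustment over all features and a threshold of 0.05. A fold change on this scale understates the change of low genes. The step was tested on simulated data with independent noise, whose spread came from the siCNOT4 replicates only. That test did not include the wider, length-related difference between the siControl libraries, so it cannot speak to it. Lengths and coordinates came from GENCODE 29 (GRCh38), where 18438 features matched by symbol, 946 by an older symbol and 1073 did not match.

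Depth was estimated from the value of 1 read in low features and those lengths. Members had at least 641 estimated reads in each library, so counting error was at most 3.95%. Such estimates cover counting error only and rest on GENCODE lengths, which may differ from those the authors used.

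Named were the 10 members, *CNOT4*, and in each list the genes past the threshold and the largest fold change in each direction (all 4 small subunit genes). Added were the 3 genes nearest in pattern to the lowest and highest member, and up to 3 markers. *ASCC1*, *GIGYF1*, *EIF4E*, *EIF2AK4*, *OTUD1*, *TIGD1* and the genes of the closing section were named for their role or position, after their values were seen. Members and lists were chosen with earlier results of these data known. Alternatives were the pseudocount, the filter, the scaling, the variance trend, the replicate number as a block, and leaving out each library. Removal of a trend on length and GC content together was added after seeing the data.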

Additional observations from a re-analysis of the deposited data

How the results depend on the processing

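Of 14 alternatives, *TRIP4* and *EIF4E2* kept their calls in 6 and *GNB2L1* in 7, and *ZNF598*, not called with TPM as deposited, was called in 6. Each of these counts includes the fits without siControl replicate 1 and without siControl replicate 2, where most features were called. Those of *TRIP4*, *GNB2L1* and *ZNF598* also include removal of a trend on length and GC content together, added after seeing the data. Over all features 1792 were called. This count was 558 with a pseudocount of 0.1, 3079 with a pseudocount of 5, 0 without a filter on low values (6701 at an unadjusted p under 0.05 in limma), 147 at a mean TPM of at least 5, 3589 after removal of the length trend, 3285 with both trends removed, and 756 without the variance trend. Called sensors were 3, but 1 after the trimmed mean of M values, and 5 after removal of the length trend or of both trends. They were 0 without a filter, at a mean TPM of at least 5 and without the variance trend. In those fits 5, 9 and 7 sensors had an unadjusted limma p under 0.05, as did 32.8%, 39.3% and 40.3% of all features. Called genes of the pathway lists were 3, but 1 with a pseudocount of 0.1 or the trimmed mean of M values, 10 with a pseudocount of 5, 8 and 5 after removal of the length trend and of both trends, and 0 without a filter, at a mean TPM of at least 5 and without the variance trend. The share of higher among called features was 89.7% with TPM as deposited, 50.6% after the trimmed mean of M values, 46.4% after quantile normalization and 47.3% after removal of the length trend. The cause of these differences was not tested.

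The median fold change of the sensors, 0.72, was 0.18 after the trimmed mean of M values, 0.30 after quantile normalization, 0.04 after removal of the length trend and -0.07 after removal of both trends. *GIGYF2* was at -0.32, -0.31, -0.55 and -0.53 in that order. *ASCC3* (-0.07) and *ZAK* (-0.08) turned below 0 after removal of both trends. *CNOT4* passed the test after each of these 4 rescalings, at -0.96, -1.15, -1.22 and -1.36 (limma adjusted p 0.0357, 0.0252, 0.0112 and 0.0155), and was below the filter of a mean TPM of 5.

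Leaving out 1 library gave 450 to 11311 called features, 0 to 10 called sensors and 0 to 39 called pathway genes. Without siControl replicate 1 and 2, 10 and 9 sensors were called, 11311 and 8171 features, and 39 and 34 pathway genes. Without siCNOT4 replicate 1 or 2, 0 sensors and 0 pathway genes were called in limma (3 sensors at an unadjusted p under 0.05 in each), and 476 and 450 features. A lone library was assumed to vary like the other group. *CNOT4* ranged from -0.70 to -0.32, the sensors' median from 0.37 to 0.75, and *GIGYF2* from -0.18 (without siControl replicate 2) to 0.61 (without siControl replicate 1). The difference in log2 ratio ranged from -0.65 to 0.04 for *ASCC2* to *ASCC3*, -0.44 to 0.64 for *TRIP4* to *ASCC3*, 0.10 to 1.22 for *EIF4E2* to *GIGYF2*, -0.04 to 0.30 for *ZNF598* to *GNB2L1*, -0.24 to 0.35 for *EDF1* to *GNB2L1* and -0.41 to -0.08 for *GNB2L1* to the small subunit genes.

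The replicate numbers are not stated to pair libraries, and with 2 pairs the correlation of their deviations was 0.171 over 14208 features. With a replicate block 3655 features, 6 sensors and 13 pathway genes were called. Estimated counting error of the sensors was at most 3.95% in a library, which is more than the difference between the *TRIP4* controls (24.2 and 24.5 TPM). With 2 libraries a group, the spread between libraries is itself poorly known.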

Other observations

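Small nucleolar RNA genes lie in introns of *GNB2L1*, and their listed values were not lower in siCNOT4 as that of the host gene was. *SNORD96A* had 33.2 and 42.5 TPM in siControl against 45.0 and 45.6 in siCNOT4, which is 0.26 as log2 fold change (limma adjusted p 0.360). *SNORD95* had 4.90 and 4.32 TPM against 5.14 and 5.21 (0.14, limma adjusted p 0.673). Poly(A) selection captures mature small nucleolar RNA poorly, so these values describe what such libraries hold and not the level of the small RNA.

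Among the kinases downstream of ZAK, the neuronal JNK gene *MAPK10* was below the filter on low values and was not tested. It had 0.200 and 0.221 TPM in the siControl libraries, compared with 0.877 and 1.39 in the siCNOT4 libraries. *MAPK14*, which encodes p38 alpha, had 39.3 and 20.7 TPM in siControl against 62.3 and 63.2 in siCNOT4 (1.11, limma adjusted p 0.0618).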
